A study of Mus musculus with 6 samples.

Results

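The genes of the G1 phase of the cell cycle were followed in cultured mouse cortical neurons with and without FMRP, the RNA-binding protein missing in fragile X syndrome. The 10 members were chosen by name for their roles: the D-type cyclins Ccnd1, Ccnd2 and Ccnd3, the E-type cyclins Ccne1 and Ccne2, the kinases Cdk2, Cdk4 and Cdk6, and the inhibitors Cdkn1b and Cdkn1c. All 10 were found among the 55367 gene names of the count table, and all 10 had enough counts to be among the 16976 genes tested. The rule used no measured value, but results of these data were known when the genes were picked.

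Cells came from the cerebral cortex of C57BL/6J pups at postnatal day 1 and were cultured for 2 days. There were 3 libraries from wild-type (WT) mice and 3 from Fmr1-KO mice, and every comparison below is Fmr1-KO relative to WT. Both groups share strain, age, tissue and culture conditions, and the only stated difference is the Fmr1 allele. According to the methods, cells carrying the astrocyte antigen ACSA2 and myelin were depleted before plating. The labels name no litter, culture or sex, so P-values measure the spread between these libraries, which may be technical.

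The G1 phase is when a cell commits to another division or leaves the cycle. D-type cyclins, made in response to growth signals, bind CDK4 or CDK6 and begin to phosphorylate the retinoblastoma protein RB. Cyclin E with CDK2 completes this, E2F transcription factors are released, and DNA replication genes are switched on. The inhibitors p27, encoded by Cdkn1b, and p57, encoded by Cdkn1c, bind cyclin-CDK complexes and favor exit from the cycle. In the developing cortex these genes act in dividing progenitors, and p27 and p57 also act in newborn neurons as they stop dividing and migrate.

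Total counts ran from 30348556 to 35126207 per library. Fmr1, the targeted gene, had 4113, 3710 and 3656 counts in WT replicates 1, 2 and 3 and 1761, 1879 and 1972 in Fmr1-KO replicates 1, 2 and 3, so the labels and the targeted gene pointed the same way. Differences between genotypes were common in these libraries. With a call defined as an adjusted P under 0.05 in edgeR, 42.6% of all tested genes were called, 20.7% higher and 21.9% lower. Libraries did not overlap between genotypes for 51.7% of genes, 25.4% with Fmr1-KO above WT and 26.3% with Fmr1-KO below. Counts for the G1 genes are read against these shares.

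Of the 10 G1 genes, 7 rose, 1 fell and 2 did not pass the test in Fmr1-KO relative to WT, so 8 of 10 were called against 42.6% of all tested genes. The libraries of the genotypes did not overlap for 8 genes that were higher, the 7 called and Ccnd3, and 1 that was lower. Ccnd2, Ccne1, Ccne2, Cdk2, Cdk4, Cdk6 and Cdkn1b rose, Ccnd1 fell, and Ccnd3 and Cdkn1c were not called. The median log2 fold-change was 0.36 over the 10 genes and 0.01 over all tested genes. The largest change was that of Ccnd2, and only 9.02% of all called genes had a larger absolute log2 fold-change. The other 7 called members changed by 0.29 to 0.51 on the log2 scale in absolute size, against a median of 0.29 over all called genes. Levels are given as CPM, read counts scaled to a common library size with TMM factors. As these are bulk RNA samples, a change in the number of cells of one type cannot be told apart from a change in the RNA of each cell.

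**Figure D1:**
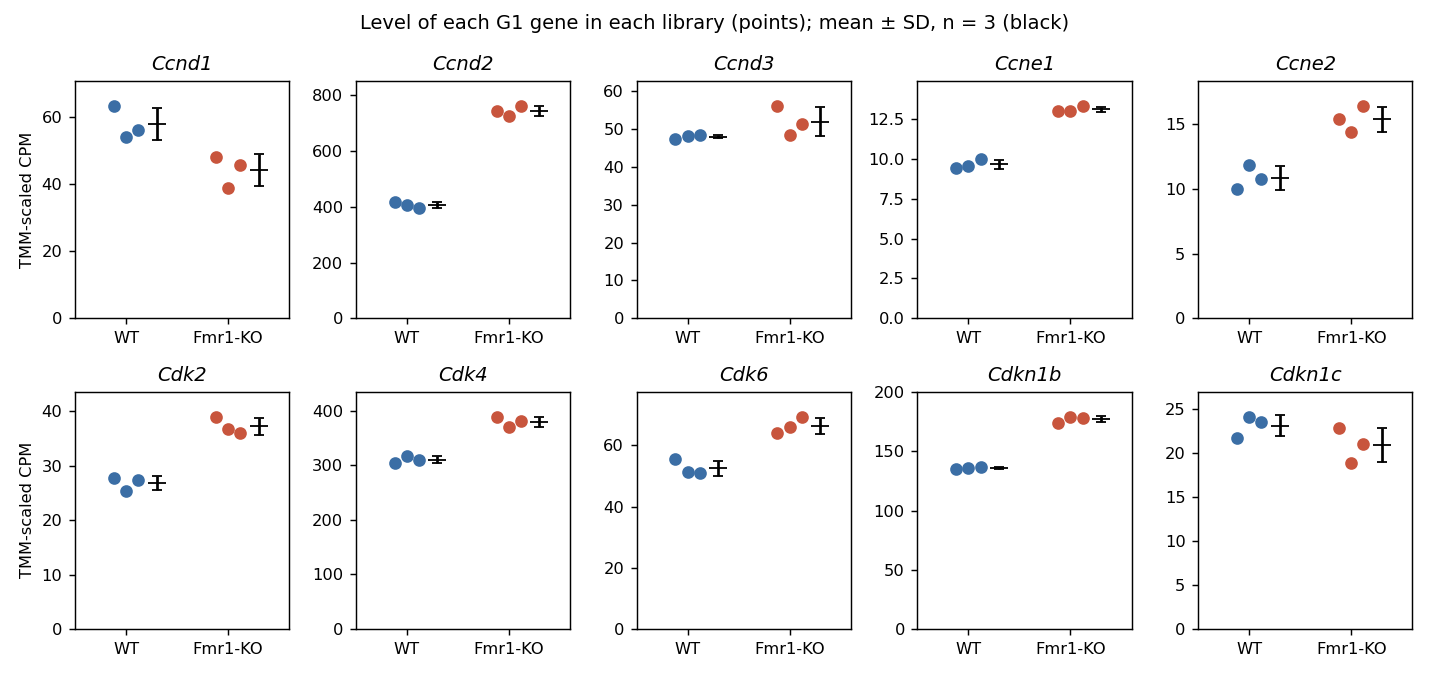
TMM-scaled CPM (y axis, from 0) of each of the 10 G1 genes in the 3 WT and 3 Fmr1-KO libraries; points are libraries, and black marks are the mean ± SD (n = 3). Ccnd2 ran from 396.4 to 416.4 CPM in WT and from 727.0 to 760.3 CPM in Fmr1-KO, while the Cdkn1c libraries of the 2 genotypes overlapped.

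Among the D-type cyclins, Ccnd2 rose, Ccnd1 fell and Ccnd3 was not called. Ccnd2 encodes cyclin D2, which is prominent in cortical progenitors, and lies on the minus strand of chromosome 6 from 127125162 to 127152193 (GRCm38). It had 14472, 13382 and 13229 counts in WT and 24190, 22256 and 26453 in Fmr1-KO. Every Fmr1-KO library lay far above every WT library, and the libraries of a genotype were within 1.05-fold of each other. Its level rose from 405.8 ± 10.02 to 743.8 ± 16.6 CPM (SD, n = 3 libraries each), and the log2 fold-change of 0.87 ± 0.03 (SE) had an adjusted P of 3.79e-15 in edgeR. This was 1.83-fold (95% CI 1.76 to 1.91).

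Ccnd1 encodes cyclin D1, the D-type cyclin most closely tied to growth factor signals, and lies on the minus strand of chromosome 7 from 144929931 to 144939925. Its levels were 63.2, 54.0 and 56.3 CPM in WT replicates 1, 2 and 3 and 48.0, 38.8 and 45.7 CPM in Fmr1-KO replicates 1, 2 and 3. The lowest WT library was above the highest Fmr1-KO library, although replicates spread more than those of Ccnd2. The mean fell from 57.8 ± 4.79 to 44.2 ± 4.79 CPM (SD, n = 3 libraries each), and the log2 fold-change of -0.39 ± 0.06 (SE) had an adjusted P of 3.61e-05 in edgeR (95% CI -0.52 to -0.26). Ccnd1 was also called by DESeq2, which called 19.7% of the genes it tested lower. The log2 fold-change was -0.31 without Fmr1-KO replicate 2 and -0.45 without Fmr1-KO replicate 1, and both passed. Ccnd1 did not pass when a fold change above 1.2 was required (adjusted P 0.0591 in edgeR), a test that called 7.89% of all genes lower.

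Ccnd3, which encodes cyclin D3, lies on the plus strand of chromosome 17 from 47505051 to 47599691. Its WT libraries were at 47.5, 48.3 and 48.4 CPM and its Fmr1-KO libraries at 56.00, 48.5 and 51.4 CPM. Every Fmr1-KO library was above every WT library, although Fmr1-KO replicate 2 (48.51 CPM) barely exceeded the highest WT library (48.36 CPM). The log2 fold-change was 0.11 (95% CI 0.02 to 0.21), with an adjusted P of 0.0547 in edgeR, so the gene was not called. The outcome turned on single libraries. The log2 fold-change was 0.16 without Fmr1-KO replicate 2 (adjusted P 0.00867 in edgeR). When Fmr1-KO replicate 1 was dropped it was 0.06 (adjusted P 0.367). It also passed with library totals alone (0.14, adjusted P 0.0182), upper-quartile normalization (adjusted P 0.0370) and a stricter filter (adjusted P 0.0482). The pseudogene Ccnd3-ps had between 0 and 5 counts per library.

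The makeup of the D-type cyclin pool was then compared within each library. Levels of different genes were compared per kilobase of annotated exon (CPM per kb), and a share within a library does not depend on how libraries are scaled to each other. Cyclin D2 transcripts made up 70.2%, 71.7% and 70.7% of the summed D-type cyclin level in WT replicates 1, 2 and 3, and 82.7%, 84.9% and 83.85% in Fmr1-KO replicates 1, 2 and 3. The share of Ccnd1 was 20.2 ± 1.08% in WT and 9.92 ± 0.814% in Fmr1-KO (SD, n = 3 libraries each). The share of Ccnd3 was 8.998 ± 0.368% in WT and 6.28 ± 0.344% in Fmr1-KO (SD, n = 3 libraries each). None of these shares overlapped between genotypes. The 3 shares of a library add up to the whole, so these are not separate results. The level of Ccnd3 itself did not fall, at 5.47 CPM per kb in WT and 5.92 CPM per kb in Fmr1-KO. Its lower share reflects the higher sum. The exact permutation test (2-sided) gave P = 0.1 for each of the 3 shares, the smallest P that 3 against 3 libraries allow, and 0.125 after adjustment over the 10 shares and ratios tested. With counts not divided by exon length, the difference in the Ccnd1 share was -6.04 instead of -10.2 percentage points, in the same direction. With the longest transcript as the length, a choice added after the data were seen, the difference in the Ccnd3 share was -4.11 instead of -2.72 percentage points. The summed level of the D-type cyclins was 60.9 ± 1.91 CPM per kb in WT and 94.3 ± 2.90 CPM per kb in Fmr1-KO (SD, n = 3 libraries each).

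The E-type cyclins rose together and by similar amounts. Ccne1, on the minus strand of chromosome 7 from 38097984 to 38107534, encodes cyclin E1, and Ccne2, on the plus strand of chromosome 4 from 11191351 to 11204779, encodes cyclin E2; both activate CDK2 at the entry to S phase. Ccne1 was at 9.47, 9.59 and 10.01 CPM in WT and 13.0, 13.0 and 13.3 CPM in Fmr1-KO. Its Fmr1-KO libraries lay within 1.02-fold of each other and clear of WT, at a log2 fold-change of 0.44 ± 0.07 (SE), with an adjusted P of 3.235e-05 in edgeR.

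Ccne2 was at 10.01, 11.8 and 10.8 CPM in WT and 15.4, 14.4 and 16.4 CPM in Fmr1-KO. Its replicates were wider apart, but the genotypes did not overlap. The log2 fold-change of 0.51 ± 0.08 (SE) passed at an adjusted P of 1.49e-05 in edgeR. The 2 genes had the lowest CPM of the 10, with 317 to 570 counts per library, and the widest confidence intervals (0.29 to 0.59 for Ccne1 and 0.35 to 0.66 for Ccne2 on the log2 scale). The share of Ccne1 in the E-type cyclin level was 54.0 ± 2.10% in WT and 52.9 ± 1.35% in Fmr1-KO (SD, n = 3 libraries each), and its libraries overlapped (exact permutation test, 2-sided, P = 0.6).

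All 3 kinases rose. Cdk4, the partner of D-type cyclins, lies on the plus strand of chromosome 10 from 127063534 to 127067920. It had 10588, 10459 and 10316 counts in WT and 12615, 11307 and 13268 in Fmr1-KO. In CPM the WT libraries were at 304.6, 316.3 and 309.1 and the Fmr1-KO libraries at 388.0, 369.4 and 381.3, with no overlap. The log2 fold-change of 0.29 ± 0.03 (SE) passed at an adjusted P of 7.04e-08 in edgeR. This was the smallest fold-change among the called G1 genes.

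Cdk6, which also pairs with D-type cyclins, lies on the plus strand of chromosome 5 from 3341485 to 3531008. Its levels were 55.4, 51.4 and 51.0 CPM in WT and 64.2, 65.9 and 69.3 CPM in Fmr1-KO. All Fmr1-KO libraries were above all WT libraries, at a log2 fold-change of 0.34 ± 0.04 (SE), with an adjusted P of 1.51e-06 in edgeR. When a fold change above 1.2 was required, 5.2% of all genes were called higher, and neither Cdk4 nor Cdk6 was among them (adjusted P 0.306 and 0.0942 in edgeR).

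Cdk2, the partner of E-type cyclins, lies on the minus strand of chromosome 10 from 128697939 to 128705031. It was at 27.7, 25.4 and 27.4 CPM in WT and 38.9, 36.8 and 36.04 CPM in Fmr1-KO. The genotypes were well apart, and the log2 fold-change of 0.47 ± 0.05 (SE) passed at an adjusted P of 1.62e-07 in edgeR. Per kilobase, Cdk4 made up most of the level of the 3 kinases in both genotypes, with shares of 92.2 ± 0.429% in WT and 91.6 ± 0.111% in Fmr1-KO (SD, n = 3 libraries each). The share of Cdk2 was 4.17 ± 0.250% in WT and 4.69 ± 0.151% in Fmr1-KO (SD, n = 3 libraries each), without overlap, and that of Cdk6 overlapped (exact permutation test, 2-sided, P = 0.8). With counts not divided by exon length, the difference in the Cdk2 share was 0.810 instead of 0.520 percentage points and that in the Cdk4 share -1.055 instead of -0.611. For the Cdk4 share the exact permutation P (2-sided) was then 0.2, against 0.1 per kilobase.

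Promoter sequences are shown for the 3 kinases, to set their upstream DNA side by side. RefSeq promoter entries (GRCm38.p6) matched 6 of the 10 genes: Ccnd3, Ccne1, Cdk2, Cdk4, Cdk6 and Cdkn1b. Ccnd1, Ccnd2, Ccne2 and Cdkn1c had none. The RefSeq start of Cdk6 lies inside the gene span given above, which came from another annotation, GENCODE. Its motif positions hold for the RefSeq start only. The 250 bases before the start are printed 5′ to 3′ on the gene's strand. Capitals mark matches on either strand to TTTNNCGC, here called the E2F motif, or to the E-box CACGTG, to which MYC-family factors bind. As N stands for any base, TTTNNCGC is a loose pattern, and a match such as TTTTACGC in Cdk6 need not be an E2F site. These motifs do not overlap each other in the sequences shown.
Cdk2 promoter, chr10:128705052-128705301, minus strand: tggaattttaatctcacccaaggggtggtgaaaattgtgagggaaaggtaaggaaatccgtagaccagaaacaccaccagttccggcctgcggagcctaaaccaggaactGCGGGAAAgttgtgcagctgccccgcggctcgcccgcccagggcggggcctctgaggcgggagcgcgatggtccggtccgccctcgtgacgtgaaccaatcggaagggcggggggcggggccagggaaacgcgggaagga
Cdk4 promoter, chr10:127063285-127063534, plus strand: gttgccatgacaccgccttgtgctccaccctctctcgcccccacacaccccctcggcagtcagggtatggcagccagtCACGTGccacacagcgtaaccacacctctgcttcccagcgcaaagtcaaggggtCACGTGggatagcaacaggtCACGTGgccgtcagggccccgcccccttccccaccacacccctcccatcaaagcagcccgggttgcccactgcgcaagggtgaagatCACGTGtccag
Cdk6 promoter, chr5:3343643-3343892, plus strand: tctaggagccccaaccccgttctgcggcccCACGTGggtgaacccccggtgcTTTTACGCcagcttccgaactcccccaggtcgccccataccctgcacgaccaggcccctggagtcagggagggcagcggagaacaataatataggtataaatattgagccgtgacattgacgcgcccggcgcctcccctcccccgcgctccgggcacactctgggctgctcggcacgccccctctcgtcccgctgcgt

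Cdk4 held 4 E-box matches, beginning 172, 118, 98 and 11 bases before its start, and no E2F match. Over all 32851 promoter entries, 6.02% held at least 1 E-box and 0.0213% held 4 or more. The cutoff of 4 is the count of Cdk4 itself, so this share is a description and not a test. Cdk2 held 1 E2F match, 140 bases before its start, and Cdk6 held 1 E2F match and 1 E-box, at 198 and 220 bases. The E2F letters were found in 4.28% of all entries. Ccne1 and Cdkn1b, which rose as the 3 kinases did, and both entries of Ccnd3 held neither motif in this window. This says only that these letters are not there. A match is a description of the sequence and not evidence of binding.

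**Figure D2:**
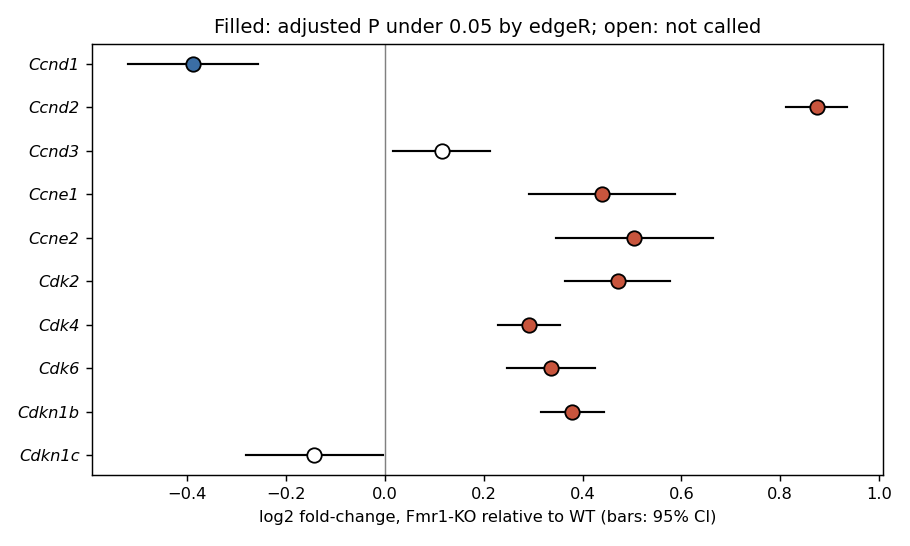
Log2 fold-change (x axis) of each G1 gene (y axis) in Fmr1-KO relative to WT, with its 95% confidence interval as a bar; filled circles were called at an adjusted P under 0.05 in edgeR and open circles were not. Ccnd2 stands furthest to the right at 0.87, and Ccnd1 at -0.39 is the only filled circle below 0.

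Of the inhibitors, Cdkn1b rose and Cdkn1c was not called. Cdkn1b encodes p27 and lies on the plus strand of chromosome 6 from 134920401 to 134925513. It had 4705, 4490 and 4568 counts in WT and 5660, 5478 and 6187 in Fmr1-KO. It was the steadiest member in WT, where the libraries were within 1.01-fold of each other, and all Fmr1-KO libraries were higher. Its level rose from 136.0 ± 0.780 to 176.9 ± 2.56 CPM (SD, n = 3 libraries each), and the log2 fold-change of 0.38 ± 0.03 (SE) had an adjusted P of 1.80e-09 in edgeR.

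Cdkn1c encodes p57, is expressed from the maternal allele and lies on the minus strand of chromosome 7 from 143458339 to 143461050. Its levels were 21.7, 24.0 and 23.5 CPM in WT and 22.8, 18.9 and 20.95 CPM in Fmr1-KO. Fmr1-KO replicate 1 lay inside the WT range. The log2 fold-change was -0.14 (95% CI -0.281 to -0.00468), with an adjusted P of 0.0903 in edgeR, so it was not called. Without Fmr1-KO replicate 1 it passed, at -0.21 (adjusted P 0.0236 in edgeR). With Fmr1-KO replicate 2 dropped it was -0.08 (adjusted P 0.381).

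The share of Cdkn1b in the summed level of the 2 inhibitors was 72.5 ± 0.995% in WT and 79.2 ± 1.78% in Fmr1-KO (SD, n = 3 libraries each). These shares did not overlap (exact permutation test, 2-sided, P = 0.1, the smallest possible). The difference of 6.62 percentage points was 3.95 with counts not divided by exon length. The inhibitors were also set against the cyclins. Their summed level rose from 41.2 ± 0.700 CPM per kb in WT to 49.1 ± 0.467 CPM per kb in Fmr1-KO (SD, n = 3 libraries each). This was 1.19-fold, against 1.55-fold for the D-type and 1.38-fold for the E-type cyclins. A lower ratio therefore does not mean a lower inhibitor level. The log2 ratio of the summed inhibitor level to the summed D-type cyclin level was -0.56 ± 0.07 in WT and -0.94 ± 0.03 in Fmr1-KO (SD, n = 3 libraries each), a difference of -0.38. Against the E-type cyclins the log2 ratio was 2.61 ± 0.04 in WT and 2.40 ± 0.04 in Fmr1-KO (SD, n = 3 libraries each), a difference of -0.21. Neither ratio overlapped between genotypes, and each had an exact permutation P of 0.1 (2-sided; 0.125 adjusted over the 10 shares and ratios).

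**Figure D3:**
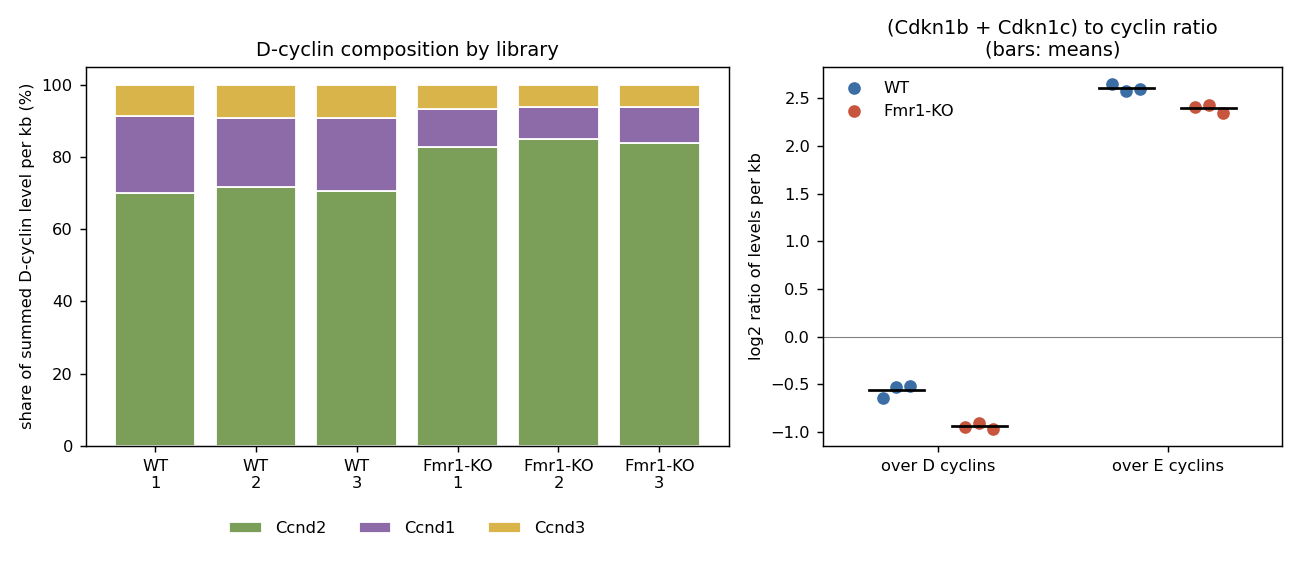
Left, share (%, y axis) of Ccnd2, Ccnd1 and Ccnd3 in their summed level per kilobase in each of the 6 libraries; right, log2 ratio (y axis) of the summed Cdkn1b and Cdkn1c level to the D-type or E-type cyclin level per library, with bars at the means. The Ccnd2 share is between 70.2% and 71.7% in WT and between 82.7% and 84.9% in Fmr1-KO, and both ratios are lower in all 3 Fmr1-KO libraries.

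In absolute terms the order of the G1 genes was much the same in all libraries. Per kilobase, Cdk4 was highest in WT (95.4 ± 1.82 CPM per kb), followed by Ccnd2 (43.1 ± 1.06) and Cdkn1b (29.9 ± 0.171, all SD with n = 3). These held the first 3 places in all 6 libraries. Ccnd1 (12.3 CPM per kb) and Cdkn1c (11.3 CPM per kb) came next in WT, and their libraries overlapped, so their order was not resolved. Ccnd3 was at 5.47, Cdk2 at 4.32, Cdk6 at 3.76, Ccne1 at 3.64 and Ccne2 at 3.11 CPM per kb in WT, where only Cdk6 and Ccne1 overlapped among neighbors. In Fmr1-KO, Ccnd2 (79.1 ± 1.77 CPM per kb, SD, n = 3) again came after Cdk4 (116.8 ± 2.90 CPM per kb, SD, n = 3). Cdkn1c and Ccnd1, Cdk2 and Ccnd3, Ccne1 and Cdk6, and Cdk6 and Ccne2 were neighbors that overlapped there. Exon lengths are unions over annotated transcripts. With the longest transcript as the length, Ccnd3 came above Cdkn1c and Ccne1 above Cdk6 in WT.

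The spread between Fmr1-KO libraries was also looked at. Fmr1-KO replicate 2 had the lowest CPM of the Fmr1-KO libraries for 7 of the 10 G1 genes. For Ccne1 this was a near tie, at 13.03 CPM against 13.04 CPM in Fmr1-KO replicate 1. The same share over all tested genes was not computed, so the count is not read as a trait of the G1 genes. Ccnd1, Ccnd3 and Cdkn1c had the widest Fmr1-KO spread, with the highest Fmr1-KO library at 1.24, 1.15 and 1.21 times the lowest. None of the 8 calls was lost when this or any other single library was left out. Ccnd1 and Cdkn1b are also on the list of NMD targets that the study defined in Neuro-2a neuroblastoma cells. They moved in opposite directions here. The paper reported generally lower levels of NMD targets in these cultures. It also described targets, E2f7 among them, whose mRNA rose while their pre-mRNA rose more. Pre-mRNA was not measured here, so NMD of Ccnd1 and Cdkn1b was not tested.

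The genes that act around G1 cyclins and kinases were then counted by list. Of 77 tested genes outside the 10, 36 were called higher and 10 lower (background 20.7% and 21.9% of all tested genes), with a median log2 fold-change of 0.12. The E2F targets of DNA replication rose without exception: 13 of 13 were called higher, with a median of 0.56. Rrm2, a subunit of ribonucleotide reductase, had a log2 fold-change of 0.81, Tyms, thymidylate synthase, 0.66 and Mcm2, part of the replicative helicase, 0.65. All 5 S- and M-phase genes, of which Ccna2 is also on the replication list, rose with a median of 0.59. Cdk1, the mitotic kinase, rose from 39.2 ± 3.14 to 62.7 ± 1.80 CPM and Ccna2, cyclin A2, from 66.9 ± 2.01 to 104.9 ± 0.930 CPM (SD, n = 3 libraries each), and Ccnb1, cyclin B1, had a log2 fold-change of 0.59.

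Among the RB proteins, the E2F and DP factors, and the genes for the CDK-activating kinase and phosphatase, some were called higher and none lower. Over all tested genes, 20.7% were called higher and 21.9% lower. Of 3 RB proteins, 2 rose: Rbl1, which encodes p107, by 0.72 and Rb1 by 0.20 on the log2 scale. Of 10 E2F and DP factors, 6 rose and none fell (median 0.24). The largest rises were those of E2f7 (0.85) and E2f8 (0.66), which encode repressor E2Fs, and E2f1 (0.65) and E2f2 (0.58), which encode activators. Of 4 genes for the CDK-activating kinase and the phosphatase that removes inhibitory phosphates, only Cdc25a, that phosphatase, rose (0.22), and without WT replicate 3 the count was 2. The main count of 1 is near the share of all tested genes.

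Inhibitors outside the 10 were counted next. Of 5 tested, 3 rose and 1 fell (median 0.55), against 20.7% and 21.9% of all tested genes. Cdkn2a, with 0 to 6 counts per library, was not tested. Cdkn2c, which encodes the CDK4/6 inhibitor p18, rose from 20.6 ± 0.253 to 30.03 ± 1.63 CPM (SD, n = 3 libraries each). Cdkn3, a CDK phosphatase that is high in dividing cells, had a log2 fold-change of 0.93. Cdkn2b, which encodes p15, had a log2 fold-change of 0.69 from only 1.23 CPM in WT. Its call was lost under DESeq2 (adjusted P 0.0559) and when WT 1, WT 2 (log2 fold-change 0.43), Fmr1-KO 1 or Fmr1-KO 3 was removed (adjusted P 0.0559 to 0.107 in edgeR). Cdkn1a, which encodes p21, was called lower at -0.13. Without Fmr1-KO replicate 3 it was -0.08 (adjusted P 0.151 in edgeR), and without WT replicate 1 its adjusted P was 0.0513. The call was also lost with library totals alone (-0.11, adjusted P 0.0558 in edgeR), which left 0 of these inhibitors lower.

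Of 9 tested ubiquitin ligase genes that control G1 cyclins or p27, 2 rose and 2 fell (median -0.03), near the 20.7% and 21.9% of all tested genes, so the counts set this list apart in neither direction. Skp2 (0.38) and Cks1b (0.40), which together direct p27 to degradation, rose. Fbxo31 (-0.42), linked to cyclin D1 degradation, and Fbxw7 (-0.22), which targets cyclin E, fell. Of 12 genes that feed into D-type cyclin expression, 3 rose and 2 fell (median 0.01), again near the 20.7% and 21.9% of all tested genes. Gli3 (0.38) and Gli2 (0.24), transcription factors of the hedgehog pathway, rose, and Tcf7l2 (-0.40), a WNT effector, and Myc (-0.30) fell. The other hedgehog genes of this list were not called, and its other WNT genes rose or were not called. These examples therefore do not describe either pathway as a whole.

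Kinases with the CDK name that do not drive the cycle were counted apart. Of the 3 genes for CDK5 and its neuronal activators, 2 were called lower and none higher, against 21.9% and 20.7% of all tested genes. Cdk5r2, which encodes the activator p39, fell from 64.5 ± 2.95 to 20.7 ± 2.01 CPM (SD, n = 3 libraries each), with a log2 fold-change of -1.63. Cdk5 was called at -0.13, and was -0.08 without WT replicate 2 (adjusted P 0.144 in edgeR). It was -0.09 (adjusted P 0.108) when Fmr1-KO replicate 2 was removed. With library totals alone it was -0.10 (adjusted P 0.0707 in edgeR), which left 1 of the 3 genes lower. Of 5 PCTAIRE and PFTAIRE kinases, 3 fell, against 21.9% of all tested genes: Cdk18 (-0.70), Cdk14 (-0.37) and Cdk16 (-0.11). Of 9 cyclins and CDKs of transcription, 2 were called higher, near the 20.7% of all tested genes. The count was 4 with library totals alone and 1 with DESeq2. Called in the main test were Ccnt2 (0.13) and Ccnc (0.12). Both calls were lost without WT replicate 3 (adjusted P 0.0862 and 0.102 in edgeR), and that of Ccnt2 also without WT replicate 1 (adjusted P 0.0506) or Fmr1-KO replicate 2 (log2 fold-change 0.09, adjusted P 0.0942).

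**Figure D4:**
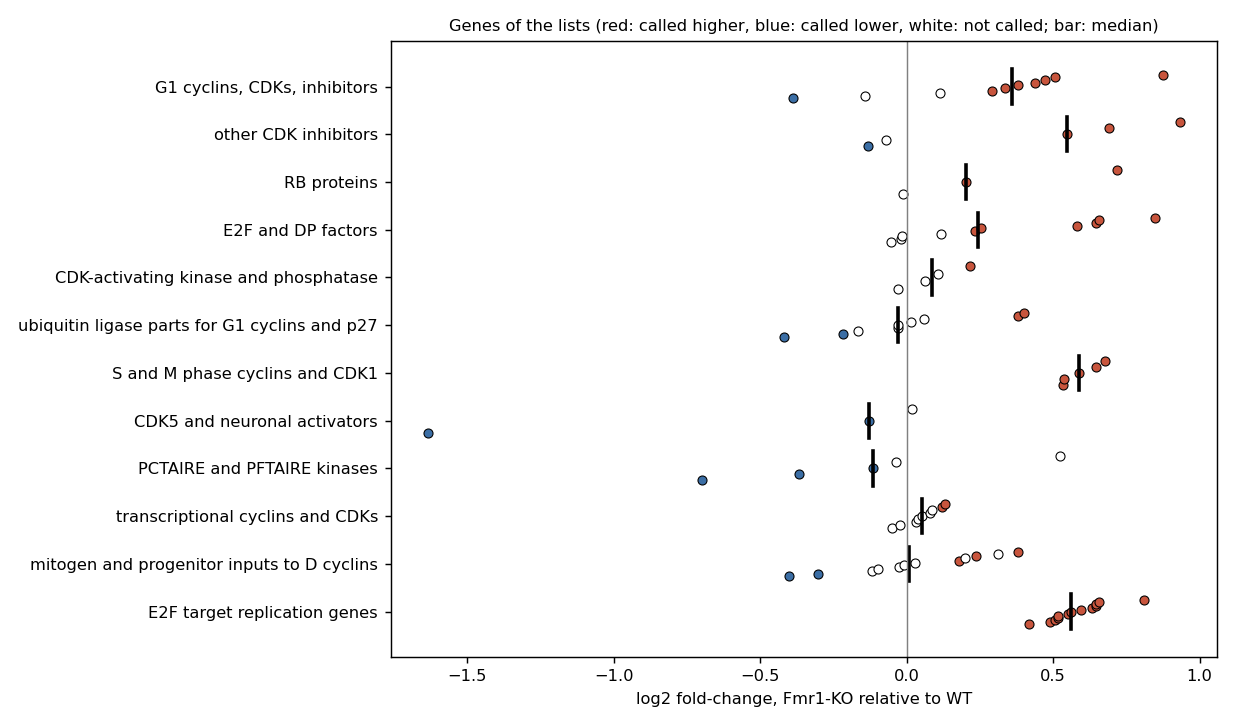
Log2 fold-change (x axis) of every tested gene of the 10 G1 genes and of 11 related lists (y axis); red circles were called higher and blue circles lower in edgeR, white circles were not called, and black bars are list medians. All 13 replication genes and all 5 S- and M-phase genes lie right of 0, while Cdk5r2 lies furthest left at -1.63.

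Cell type markers moved with genotype beside the G1 genes, and their counts are read against 20.7% higher and 21.9% lower over all tested genes. Proliferation markers, which include Cdk1 and Ccnb1 named above, were called higher in 10 of 10, from a summed 453.6 to 500.7 CPM in WT to 801.3 to 869.6 CPM in Fmr1-KO. Mki67 had a log2 fold-change of 1.09 and Top2a of 0.86, next to 0.87 for Ccnd2. Intermediate progenitor markers were called higher in 5 of 5 tested (127.8 to 152.3 CPM in WT, 265.3 to 296.6 CPM in Fmr1-KO), with Eomes at 2.79 and Neurog2 at 2.35. Radial glia markers were split, with 4 of 10 higher and 1 lower (3605 to 3667 CPM and 3955 to 4003 CPM). Pax6 was at 0.52 and Hopx at -0.40.

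Neuronal markers, which check the labelled cell type, were present, with a sum of 4709 to 4808 CPM in WT and 3981 to 4174 CPM in Fmr1-KO. Of these 10, 9 fell, led by Nefl (-1.90). Dcx was called higher at 0.08, a call lost without WT 1, WT 3 (0.07) or Fmr1-KO 3 (0.06), with adjusted P of 0.0643, 0.133 and 0.168 in edgeR. Astrocyte markers were present too, at 4725 to 4863 CPM in WT and 4059 to 4439 CPM in Fmr1-KO, with 2 of 8 higher and 5 lower. Oligodendrocyte lineage markers fell in 8 of 8 (1884 to 2046 CPM and 1075 to 1159 CPM), and microglia markers in 7 of 8 (164.7 to 182.6 CPM and 96.5 to 108.4 CPM). GABAergic interneuron markers were higher in 4 and lower in 4 of 8 (729.5 to 757.3 CPM and 783.1 to 860.5 CPM), and endothelial and mural markers higher in 3 and lower in 3 of 7 (206.7 to 226.7 CPM and 203.4 to 221.9 CPM). No marker on these lists was at 0 in all libraries, but Neurog1 (0 to 2 counts per library) and Cldn5 (1 to 9) were too low to be tested. Of 5 sex-linked genes, 1 was called higher and 3 lower, where Xist had a log2 fold-change of 1.58 and Eif2s3y, on the Y chromosome, of -0.47. The part of cell makeup or of the sex of the pups in the differences of the G1 genes was not tested.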

How the data were processed

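RNA-seq was analysed for 3 WT and 3 Fmr1-KO libraries, grouped by genotype as labelled. The values the authors deposited are raw read counts for each gene name, without normalization. According to their methods and processing notes, polyA RNA libraries (TruSeq Stranded) were sequenced as single-end reads, trimmed with FastP, aligned to GRCm38.p6 with STAR (2.7.6a) and assigned to exons with featureCounts (Subread 2.0.1 in the notes) in reverse-stranded mode. Stranded counting matters here, since 8 of the 10 G1 genes overlap a gene on the other strand and 0 overlap one on the same strand. Counts by name do not separate isoforms, and reads shared with near-identical copies are not resolved.

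Genes were tested with edgeR 4.0.16 (R 4.3.3): filterByExpr, TMM, glmQLFit and glmQLFTest, 2-sided, genotype as the only term, Benjamini-Hochberg adjustment over the 16976 genes tested, and calls at an adjusted P under 0.05. SE was taken as the size of the log2 fold-change divided by the square root of F. DESeq2 1.42.0, the authors' tool in another version, was an alternative. Gene positions and union exon lengths were read from the GENCODE M21 annotation (GRCm38), an earlier release than the authors'; 98.6% of tested names were found in it. Shares and ratios were compared by exact permutation tests (scipy 1.17.1). Total counts of 30348556 to 35126207 gave 317 to 26453 counts per G1 gene and library.

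The G1 genes and the related lists were chosen with earlier results of these data known; the genes named are Fmr1, the 10 genes, and up to 4 examples of a list, led by the largest called change in each direction. Ccnd3-ps, Cdkn2a, Neurog1 and Cldn5 were added after their counts were seen. This rule also asked for the gene most alike to each member across libraries; this is not reported, since the 6 libraries form 2 clusters. On simulated data for this comparison (16814 genes), the test recovered 93.4% of 200 genes changed by 1 log2 unit and called 0.0662% of the unchanged genes. Calls in the data were more common (42.6% of genes) and smaller (median 0.29 log2 units), so these rates do not carry over to them. Alternatives were DESeq2, RLE, upper-quartile or no scaling factors, no filter, a stricter filter (at least 10 counts and 5 CPM on average), the replicate number as a block, each library left out in turn, a minimum fold change of 1.2 and, for shares, counts not divided by length. The longest transcript as length was added after the data were seen.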

Additional observations from a re-analysis of the deposited data

How the results depend on the processing

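Over 140 refits of the log2 fold-change of the 10 G1 genes, 132 stayed on their side of the threshold, 3 lost the call, 5 gained it and 0 changed sign. The losses (Ccnd1, Cdk4 and Cdk6) came with a minimum fold change of 1.2, a test that by construction calls fewer genes. It left 5 G1 genes higher and 0 lower, 1340 genes lower and 883 higher over the whole table, and 5 related genes lower. Among the other genes named, Cdkn1a, Cdkn2b, Rb1, Cdc25a, Fbxw7, Cdk5, Cdk16, Ccnc, Ccnt2, Gli2, Myc and Dcx also lost the call with it. The gains were 4 of Ccnd3 and 1 of Cdkn1c. With each library left out in turn, 7 to 8 G1 genes were higher and 1 to 2 lower, and the count of 2 arose without Fmr1-KO replicate 1. Log2 fold-changes of Ccnd2 stayed between 0.86 and 0.90 and those of Ccnd1 between -0.45 and -0.31. The median over the related genes was 0.13 after upper-quartile scaling. It was 0.15 with library totals alone, where the median of all genes moved by 0.03, and 0.11 to 0.14 with a library left out, and the cause was not tested. The difference in the share of Ccnd1 was -6.04 percentage points with counts not divided by length, against -10.2, and that of Ccnd2 was 9.25 against 12.95. Deviations of same-numbered libraries correlated at -0.0828, 0.0649 and 0.0291. This gave no sign of pairing by replicate number, but it cannot exclude pairing, on which the labels are silent. In the fit with the replicate block, 3694 genes were called lower and 3488 higher, and the G1 genes again gave 7 higher and 1 lower.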
